A study of Enchytraeus crypticus with 9 samples.

Results

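The comparison concerned 2 doses of ultraviolet radiation given to *Enchytraeus crypticus*, a small white annelid worm of the soil. The total given over 5 days was 8100 J/m² in UV Dose 2 and 7500 J/m² in UV Dose 1, a ratio of 1.08. Both groups were adults with a developed clitellum, the gland that marks sexual maturity, kept in ISO reconstituted water. Each dose was measured on 3 of the 9 arrays of the series, and every array received RNA from a whole-body pool of 40 worms. The other 3 arrays were Control worms under laboratory illumination without UV. They entered no test of the main comparison, only the alternatives that normalized or fitted all 9 arrays together. Their levels are also described beside the probes below. Members were gene probes whose signal was flagged as positive and significant over background on all 6 UV arrays, 32163 of 43750 (73.5%). A further 40 of them carried an outlier flag, which left 32123 tested probes. Of the probes outside the rule, 2621 missed the flag on a single array and 1766 on all 6. RNA of a whole worm mixes its tissues, so fewer cells of a type and less RNA per cell cannot be told apart. Nothing in the labels says that the pools of a dose came from separate cultures, so the p-values measure only the spread between these samples.

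Ultraviolet radiation is absorbed by DNA, where it joins neighbouring pyrimidine bases into dimers that block copying and transcription. Animals remove such lesions by nucleotide excision repair and, in many lineages, with the light-driven enzyme photolyase. Radiation also produces reactive oxygen species, which catalase, superoxide dismutase and glutathione transferases detoxify, and unfolded proteins, which heat shock proteins bind. The probes carried the identifiers of assembled contigs or of single sequencing reads (identifiers beginning with GYUW2K) and no gene names. None of these pathways could therefore be followed by name, and probes are described below by their identifiers and levels.

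Arrays of unlike dose correlated in the same range as arrays of the same dose. Pearson correlations of log2 signal across the tested probes, which are not independent replicates, were 0.975 to 0.985 within UV Dose 2, 0.963 to 0.985 within UV Dose 1 and 0.968 to 0.983 for pairs of unlike dose. Between 35684 and 38726 gene probes per array passed the flag of the rule, and no gene probe was saturated. The first principal component, with 36.0% of the variance, set UV Dose 1 replicate 2 (92.5) apart from UV Dose 1 replicate 1 (-60.8). The doses were separated only by the third of the 3 components examined, with 19.0% of the variance, on which UV Dose 2 arrays lay between -49.8 and -20.0 and UV Dose 1 arrays between 17.6 and 40.3. The SD within a dose had a median over probes of 0.27 under UV Dose 2 and 0.31 under UV Dose 1, and it was larger under UV Dose 1 for 56.5% of the probes.

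The arrays were printed on slides that were scanned separately, and the slides did not divide evenly between the doses. All 3 UV Dose 2 arrays and UV Dose 1 replicate 1 were on slide 4, whereas UV Dose 1 replicates 2 and 3 were on slide 2 together with Control replicate 2. UV Dose 1 replicate 1 is therefore the only array that allows the doses to be compared within a slide. Differences within slide 4, the mean of the 3 UV Dose 2 arrays minus that array, are given beside the probes below. The same arrays entered the choice of the named probes, so these differences are no independent check. The spike-in transcripts, added as positive controls during labelling, averaged 13.12 ± 0.40 on the log2 scale under UV Dose 2 and 13.08 ± 0.10 under UV Dose 1 (SD, n = 3 each). Their difference of 0.04 had p = 0.9 by an exact two-sided permutation test, where 3 arrays against 3 cannot go below 0.1.

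The main question was whether the higher dose changed the expression of any gene relative to the lower dose. With limma after SVCD normalization, a scaling that rests on genes found not to vary between conditions, 0 of 32123 probes (0%) passed an adjusted p of 0.05, and the smallest adjusted p was 0.460. SVCD normalization itself ended with all 32123 probes as no-variation genes, and MedianCD normalization, the variant with medians, ended with 30226 (94.1%). At an unadjusted p under 0.05 there were 1470 probes (4.58%), of which 548 (1.71%) were higher and 922 (2.87%) lower in UV Dose 2. The methods' t-test found 1629 such probes (5.07%) and 1 (0.00311%) with an adjusted p under 0.05. That probe, GYUW2K401EB3AQ, differed by 0.06, with all 3 arrays at 8.60 under UV Dose 2 and all 3 at 8.54 under UV Dose 1. The arrays of the doses did not overlap for 3157 probes (9.83%), which were 1610 (5.01%) with UV Dose 2 above and 1547 (4.82%) with UV Dose 2 below. Allowing the prior variance of limma to follow the level, with a robust fit, called 2 probes, contig08977 and contig22777, which are described below.

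The balance between higher and lower probes depended on the normalization and on single arrays. Of the 1470 probes at an unadjusted p under 0.05, 37.3% were higher in UV Dose 2. This share was 60.1% with Median, 58.1% with MedianCD, 55.1% with Quantile and 51.5% with cyclic loess normalization, and 25.8% without normalization and 16.3% after scaling to the spike-ins. Without UV Dose 1 replicate 2 the number at an unadjusted p under 0.05 was 3385 (10.5%), with 15.6% of them higher, and still 0 passed the adjusted threshold.

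The arrays nevertheless set limits on how far the doses differed. The 95% confidence interval of the difference lay wholly inside 2-fold in either direction for 20433 probes (63.6%). With slide as a fixed block, which leaves a single UV Dose 1 array to compare, the number was 10252. The median half-width of the interval corresponded to 1.54-fold, and the quartiles of the standard errors were 0.21 and 0.36 on the log2 scale. Observed differences ranged between -3.86 and 3.50, with the quartiles at -0.21 and 0.16. A difference over 2-fold was seen for 815 probes (2.54%), of which 248 (0.772%) were higher and 567 (1.77%) lower in UV Dose 2. Of these 815 probes, 362 had an unadjusted limma p of 0.05 or more.

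**Figure D1:**
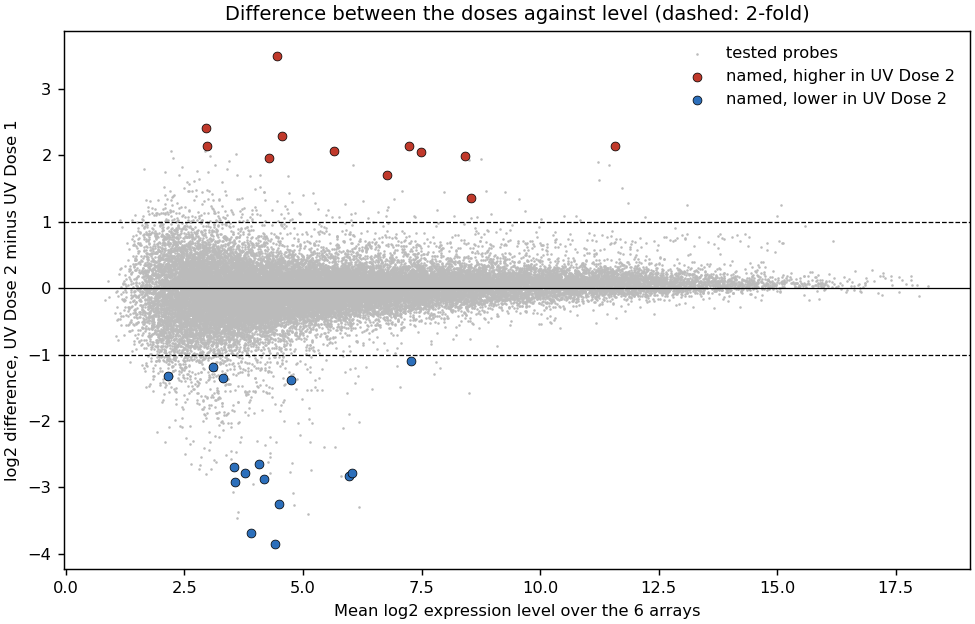
Difference of each tested probe in log2 units (vertical axis, UV Dose 2 minus UV Dose 1) against its mean log2 expression level over the 6 arrays (horizontal axis), with the named probes in colour. The cloud narrows with level, and the named probes reach from -3.86 to 3.50.

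Precision improved with the level of the probe. Among 10028 probes with a mean log2 level of 2 to 4, the median standard error was 0.35 and the interval lay inside 2-fold for 33.6%. Among 1573 probes above 12 the median standard error was 0.19 and the share 94.6%. Non-overlapping arrays were seen for 7.52% to 11.9% of the probes over the 7 classes of level. The direction at an unadjusted p under 0.05 followed the level. At levels of 2 to 4, 7.59% of 10028 probes had such a p, 197 of them higher and 564 lower in UV Dose 2. At levels over 10 it was only 0.95% of 3894 probes, 36 higher and 1 lower. The share over all tested probes was 4.58%.

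The median difference drifted with level in the same way. Under SVCD normalization it was -0.09 at levels of 2 to 4, -0.07 at 4 to 6, 0.02 at 6 to 8 and 0.08 at 10 to 12. Within slide 4 it was -0.33 at 2 to 4 and 0.21 over 12. Quantile and cyclic loess normalization, which align the arrays at each level, held it between -0.03 and 0.02 at all levels. The median level of an array averaged 5.06 ± 0.03 for UV Dose 2 and 5.14 ± 0.02 for UV Dose 1 (SD, n = 3 each), a difference of -0.08 with the arrays not overlapping (two-sided exact permutation p = 0.1, the smallest possible). This difference depended on the scaling, at -0.00773 with MedianCD, -0.03 with cyclic loess and -0.17 with spike-in scaling, and it was -0.13 without UV Dose 1 replicate 2. The median of the differences of single probes was -0.001, which the scaling itself set. With 2 conditions and all probes as no-variation genes, SVCD balances the higher against the lower probes. This median is therefore no measure of a shift between the doses, and it is not the same quantity as the difference of the array medians.

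**Figure D2:**
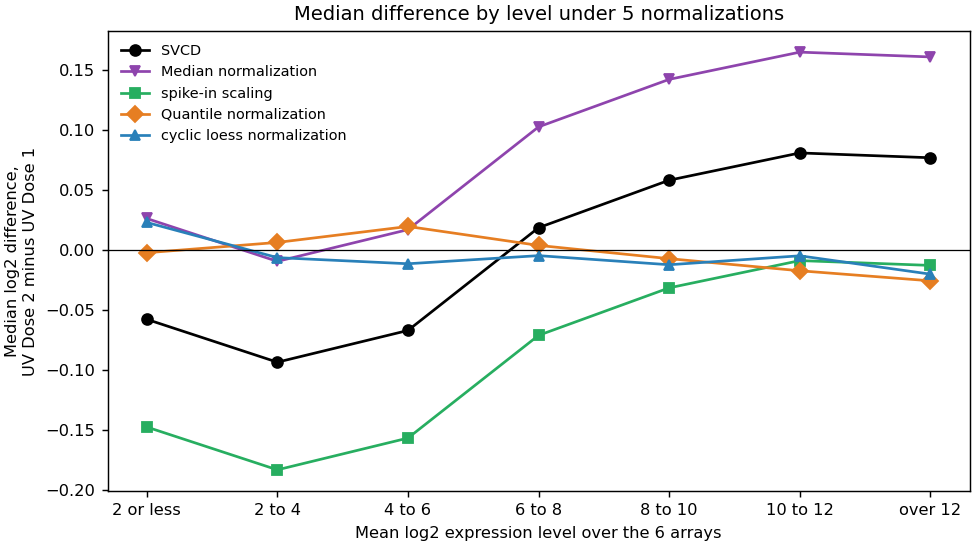
Median log2 difference between the doses (vertical axis, UV Dose 2 minus UV Dose 1) in 7 classes of mean log2 expression level (horizontal axis), 1 line for each of 5 normalizations. SVCD, Median and spike-in scaling give lines that climb with level, between -0.18 and 0.16 in all, while Quantile and cyclic loess lines stay near 0.

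Among the probes higher in UV Dose 2, the 5 with the smallest p-values had tight UV Dose 2 replicates, which a small p itself favours. Their SD had a median of 0.13 under UV Dose 2 and 0.30 under UV Dose 1. Over all tested probes the medians were 0.27 and 0.31. The probe contig08977 read 8.22, 8.47 and 8.27 on the UV Dose 2 arrays, against 5.83, 6.35 and 6.33 on the UV Dose 1 arrays. The lowest UV Dose 2 array was 3.65-fold above the highest UV Dose 1 array for this probe. Its difference was 2.15 with a standard error of 0.21 (95% interval 1.64 to 2.66), and limma's adjusted p was 0.460, or 0.0401 with the trended and robust prior.

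A second probe, contig22777, differed by the same amount. It read 12.70, 12.57 and 12.70 under UV Dose 2, against 10.16, 10.79 and 10.58 under UV Dose 1. Its difference was 2.15 with a standard error of 0.21, with an adjusted p of 0.460 by limma and 0.0190 with the trended and robust prior. For contig08977 and contig22777 the lowest UV Dose 1 array was replicate 1, the one on the same slide as UV Dose 2, so the difference within slide 4 was larger, 2.49 and 2.50.

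Further named probes followed these 2 closely from array to array. The probe contig09992 read 8.55, 8.71 and 8.28 under UV Dose 2, against 5.80, 6.84 and 6.75 under UV Dose 1, a difference of 2.05 ± 0.32 (SE). The single-read probe GYUW2K402IXGOU read 5.21, 5.43 and 5.19 under UV Dose 2, against 2.84, 3.51 and 3.57 under UV Dose 1, a difference of 1.97 ± 0.25 (SE). After centring each probe on its own mean, contig08977 never departed from GYUW2K402IXGOU by more than 0.19, from contig22777 by more than 0.24 or from contig09992 by more than 0.27 on any of the 6 arrays. These pairs were compared after their values were seen, among probes picked by their difference between the doses, which itself favours alike profiles. Without sequences it is unknown whether such probes read the same transcript.

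The remaining named probes with tight UV Dose 2 arrays were contig11596, GYUW2K402GPPPY, contig03157 and contig13054. The probe contig11596 averaged 7.62 ± 0.10 under UV Dose 2 and 5.91 ± 0.21 under UV Dose 1 (SD, n = 3 each), a difference of 1.71. GYUW2K402GPPPY averaged 9.42 ± 0.26 under UV Dose 2 and 7.43 ± 0.71 under UV Dose 1 (SD, n = 3 each), a difference of 1.99, and contig03157 averaged 6.69 ± 0.16 under UV Dose 2 and 4.62 ± 0.75 under UV Dose 1 (SD, n = 3 each), a difference of 2.07. Their wider spread at the lower dose came with an adjusted p of 0.807 by limma for both, against 0.553 for contig11596.

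The probe contig13054, taken from an earlier analysis of these data, was tight at both doses. It read 9.22, 9.08 and 9.37 under UV Dose 2, against 7.85, 7.82 and 7.92 under UV Dose 1, a difference of 1.36 ± 0.17 (SE) with an adjusted limma p of 0.553. Its 3 Control arrays lay between the doses, from 8.45 to 8.68.

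The Control level of most of these probes lay at or below that of UV Dose 1. For contig08977 the Control arrays read 5.64, 5.19 and 5.03, and for contig22777 they read 9.87, 9.62 and 8.92, all below every UV Dose 1 array. Over the 10 largest positive differences, the mean of the Control arrays was below both doses for 8 and nearer to UV Dose 1 than to UV Dose 2 for all 10. Over all tested probes these shares were 41.1% and 47.6%. The 10 probes were picked by their difference between the doses, so all tested probes are no matched reference. All Control arrays passed the flag of the rule for 7 of the 10. GYUW2K401EZNL3 and GYUW2K401A44RR, whose Control mean was not below both doses, are described next. Control levels are a description on a scale set over all 9 arrays and were not tested.

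The other large positive differences came from probes whose UV Dose 2 arrays disagreed among themselves. GYUW2K401EZNL3 read 7.69, 7.56 and 3.34 under UV Dose 2, against 2.92, 3.12 and 2.05 under UV Dose 1. No UV Dose 1 array had it well above background, so by observed means it is given as at least 9.98-fold higher. This bound leaves out the spread between arrays. The 95% interval of its log2 difference of 3.50 ran from 0.77 to 6.23, with an adjusted p of 0.980 by limma. GYUW2K401BQ470 read 4.76, 4.74 and 2.97 under UV Dose 2, against 1.30, 2.15 and 1.77 under UV Dose 1. GYUW2K401AT5WW read 6.86, 3.92 and 6.35 under UV Dose 2, against 3.35, 3.63 and 3.25 under UV Dose 1. Replicate 3 was the low UV Dose 2 array in the first and the second of these probes, and replicate 2 in the third.

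Dim probes completed the list. By observed means, GYUW2K401BQ470 was at least 2.95-fold and GYUW2K401A44RR at least 2.72-fold higher in UV Dose 2. No UV Dose 1 array had either of them well above background. These bounds set the observed mean of the bright dose against a floor on each array of the dim dose. They leave out the spread between arrays. The floor was the lowest level at which probes were well above background there, or the probe's own level where that was higher. Over the 10 largest positive differences the median difference was 2.15, and within slide 4 it was 2.49, with all 10 over 2-fold there. The arrays of slide 4 were among those by which the 10 probes were picked, so this is no independent check.

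**Figure D3:**
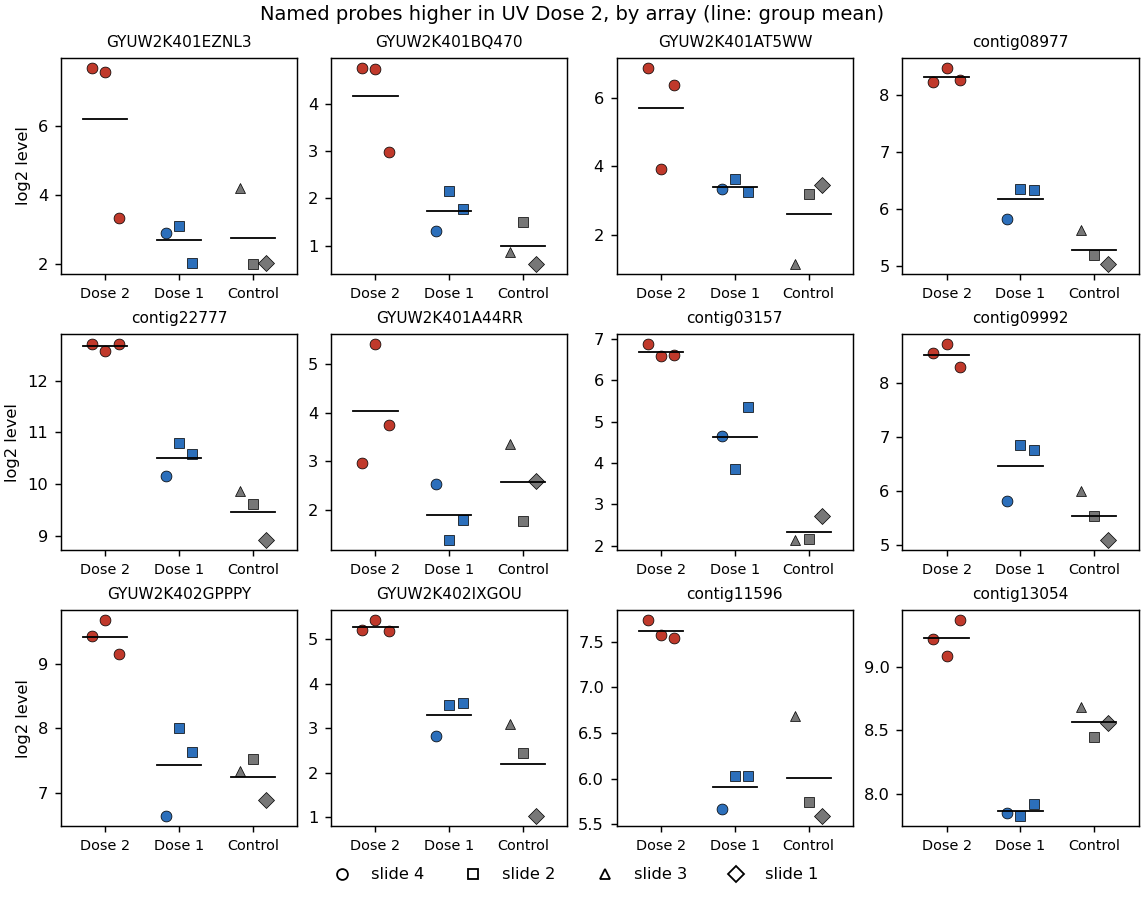
Log2 expression level (vertical axis) of the 12 named probes higher in UV Dose 2 on each array, for UV Dose 2, UV Dose 1 and Control, with the marker shape giving the slide and a line at the group mean. In contig08977 and contig22777 the 3 UV Dose 2 arrays sit tightly above all others, whereas in GYUW2K401EZNL3 UV Dose 2 replicate 3 lies near UV Dose 1.

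The largest negative differences rested on UV Dose 1 replicates 2 and 3. GYUW2K401E0L6C read 3.63, 1.30 and 2.49 under UV Dose 2, against 3.94, 9.92 and 5.12 under UV Dose 1, a difference of -3.86 with a standard error of 1.51. The probe contig22631 read 4.56, 4.34 and 4.77 under UV Dose 2, against 4.94, 10.09 and 7.14 under UV Dose 1, and contig20169 read 4.77, 4.50 and 4.66 under UV Dose 2, against 5.48, 9.65 and 7.16 under UV Dose 1. In each of them UV Dose 1 replicate 1 was the lowest UV Dose 1 array and replicate 2 the highest by far. Without replicate 2 the difference of GYUW2K401E0L6C was -2.12, that of contig22631 -1.54 and that of contig20169 -1.74.

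A second pattern among them had UV Dose 1 replicates 2 and 3 high together. GYUW2K402H04ZM read 3.42, 2.75 and 2.42 under UV Dose 2, against 4.19, 6.75 and 7.38 under UV Dose 1, and GYUW2K401C23DN read 2.52, 1.82 and 2.80 under UV Dose 2, against 3.85, 5.57 and 6.07 under UV Dose 1. The probe contig15227 had almost the same profile, with 2.81, 2.11 and 3.32 under UV Dose 2, against 3.80, 5.97 and 6.42 under UV Dose 1. The probe contig21122 differed by -2.70, with UV Dose 1 replicates 2 and 3 at 4.88 and 6.17.

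For 3 of these probes the UV Dose 2 level is only a bound, because no UV Dose 2 array was well above background. By observed means, contig21391 was at least 8.94-fold, contig21001 at least 7.34-fold and GYUW2K402HHHBM at least 5.29-fold lower in UV Dose 2. The 95% intervals of their log2 differences were -7.29 to -0.07, -5.08 to -0.67 and -4.50 to -1.34, in that order. The bound of contig21391 rested on UV Dose 1 replicate 2, since the probe read 3.13, 9.49 and 4.58 under UV Dose 1. Its difference of -3.68 was -1.87 without that array and -1.08 within slide 4. Adjusted p-values by limma over the 10 largest negative differences were between 0.876 and 1.00. The SD of the 3 UV Dose 2 arrays had a median of 0.52, and that of the 3 UV Dose 1 arrays had a median of 1.86 over these 10 probes.

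These differences were smaller within the slide that held both doses. Over the 10 largest negative differences the median was -2.85, and the median within slide 4 was -1.21. The difference was under 2-fold there for contig22631 (-0.38), contig21001 (-0.56) and contig20169 (-0.83). UV Dose 1 replicate 1 was the UV Dose 1 array nearest to the UV Dose 2 mean for all 10.

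Control replicate 2, the Control array on slide 2, was also the highest Control array for all 10 of these probes, against 31.6% of all tested probes. In contig15227 it read 9.58, against 2.31 and 2.63 on the other Control arrays, and in contig21001 it read 9.02, against 1.23 and 3.31. It stood over 4-fold above the other Control arrays for 8 of the 10, against 0.928% of all tested probes, the exceptions being GYUW2K401E0L6C and contig22631. Across all tested probes, 27 had both UV Dose 1 arrays of slide 2 over 4-fold above all 4 arrays of slide 4, and 0 had them over 4-fold below. Control replicate 2 was the highest Control array for all 27. Both the 10 and the 27 probes were picked by their values on the UV arrays, so all tested probes are no matched reference. The slide and the scan moved together with these values, and their part in the differences was not tested.

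**Figure D4:**
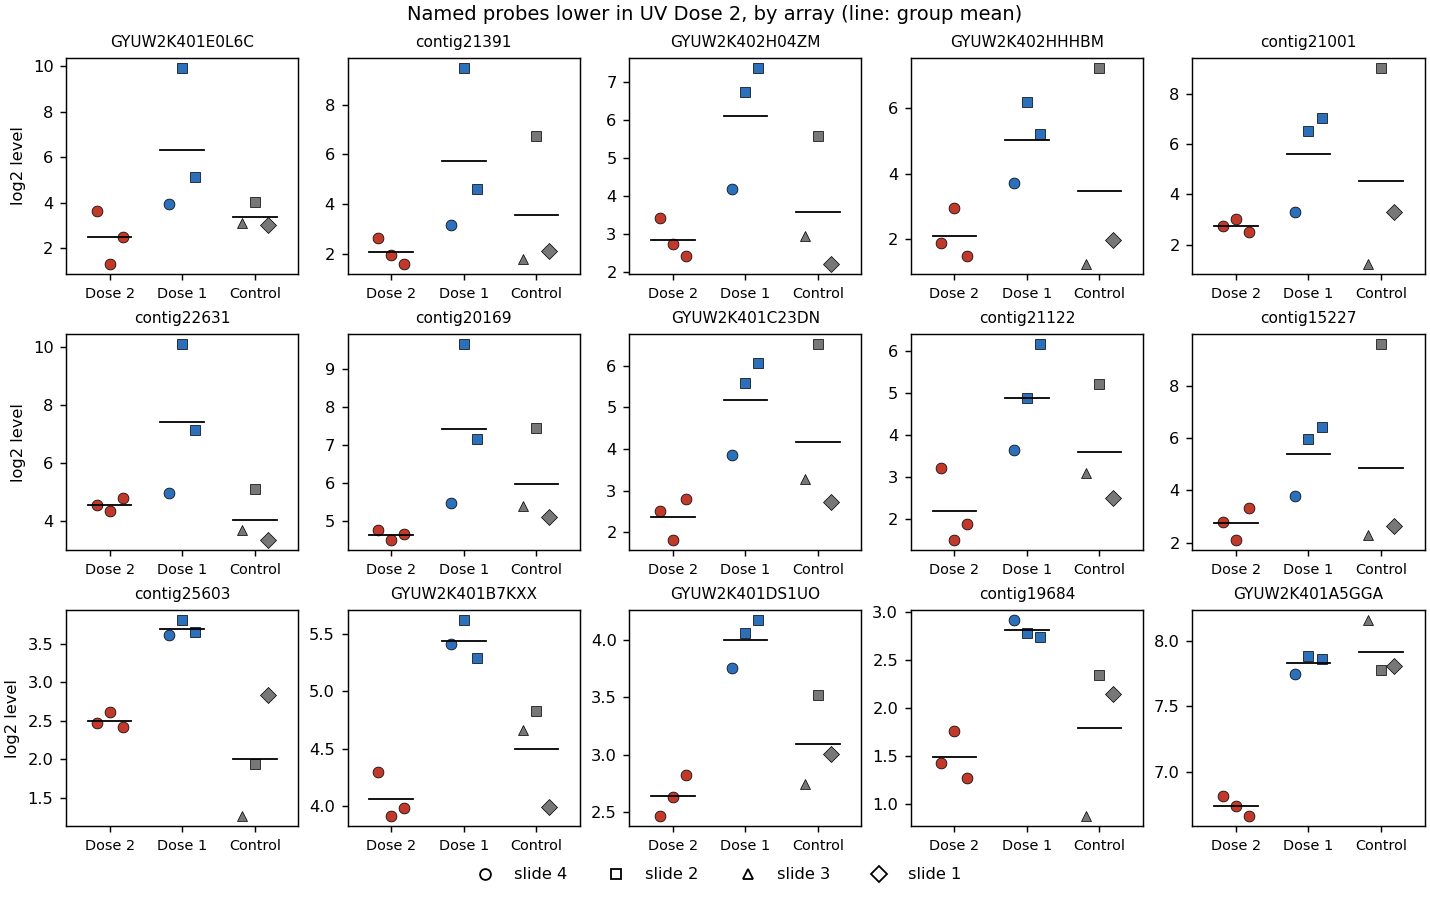
Log2 expression level (vertical axis) of the 15 named probes lower in UV Dose 2 on each array, for UV Dose 2, UV Dose 1 and Control, with the marker shape giving the slide and a line at the group mean. In the first 10 panels the squares of slide 2 are the highest values of UV Dose 1 and of Control, and in the last 5 panels the 3 UV Dose 1 arrays lie close together.

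The negative differences with the smallest p-values were smaller and tight at both doses, a tightness that a small p itself favours. GYUW2K401B7KXX read 4.30, 3.91 and 3.98 under UV Dose 2, against 5.42, 5.62 and 5.29 under UV Dose 1, a difference of -1.38 ± 0.20 (SE). GYUW2K401A5GGA read 6.82, 6.74 and 6.66 under UV Dose 2, against 7.74, 7.88 and 7.86 under UV Dose 1, a difference of -1.09 ± 0.16 (SE). GYUW2K401DS1UO differed by -1.36 ± 0.20 (SE). UV Dose 1 replicate 1 lay with the other UV Dose 1 arrays in these probes, and the differences within slide 4 were -1.35, -1.01 and -1.12.

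The other 2 probes of this kind were dim under UV Dose 2. By observed means, contig25603 was at least 2.10-fold and contig19684 at least 1.18-fold lower in UV Dose 2, with no UV Dose 2 array well above background. Adjusted p-values by limma over these 5 probes were between 0.553 and 0.598. The Control arrays of GYUW2K401A5GGA, from 7.78 to 8.16, lay with UV Dose 1, whereas those of GYUW2K401B7KXX, from 3.99 to 4.83, lay between the doses or with UV Dose 2.

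Complete separation of the doses by a wide margin was rare. Every UV Dose 2 array was over 2-fold above every UV Dose 1 array for 18 probes, and every UV Dose 1 array was over 2-fold above every UV Dose 2 array for 8. Of the 18 probes, 14 were well above background on all 6 arrays, against 0 of the 8 and 73.8% of all tested probes. Their median level over the 6 arrays was 7.37 for the 18 and 2.90 for the 8. The Control mean was below both doses for 14 of the 18 probes and for 1 of the 8, against 41.1% of all tested probes. Both sets were picked by the gap between the doses, so all tested probes are no matched reference.

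Detection by flag, unlike the margin counts above, gave more probes to UV Dose 1. Among 43704 gene probes without an outlier flag, 35 were well above background on all 3 UV Dose 2 arrays and on no UV Dose 1 array, and 85 showed the opposite. The looser flag of the rule gave 69 probes with UV Dose 2 alone and 75 with UV Dose 1 alone. Most of these probes were near the detection level, with a median level at the bright dose of 3.34 for the 35 and 3.72 for the 85. The bound on the difference was over 2-fold for 6 of the 35 and for 43 of the 85. Leading probes of the 85 often rested on the slide 2 arrays. The probe contig21001 read 3.30 on UV Dose 1 replicate 1, on slide 4, against 6.53 and 7.03 on replicates 2 and 3. Other probes went the other way, such as GYUW2K402JY1BE, with 4.37 on replicate 1 against 3.98 and 3.86. The part of the slide in these counts was not tested. The number of probes well above background per array averaged 27872 ± 1785 under UV Dose 2 and 28389 ± 1488 under UV Dose 1 (SD, n = 3 each), with p = 0.7 by the exact permutation test.

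Among probes well above background on all 6 arrays, the 5 widest ranges rested on 1 or 2 arrays. GYUW2K401EIO4R read 16.74, 16.29 and 9.72 under UV Dose 2, against 9.72, 17.21 and 15.81 under UV Dose 1. A single array of each dose was thus low, while the means of the doses were equal at 14.25. Its 3 Control arrays were all high, at 17.67, 17.08 and 15.07. The other 4 probes of widest range, GYUW2K401ATH3M, contig15946, GYUW2K401CLMK2 and contig08015, had UV Dose 1 replicate 2 as their highest array, at 11.02, 11.65, 10.32 and 9.52, and their UV Dose 2 arrays between 3.30 and 5.03. In GYUW2K401ATH3M the other UV Dose 1 arrays, at 4.13 and 5.29, were also above every UV Dose 2 array.

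Departures of 1 array from the other 5 were spread over the doses. A single array stood over 4-fold above the other 5 for 270 probes and over 4-fold below for 60, together 1.03% of the tested probes. Among probes well above background on all 6 arrays the total was 86, against 330 among all tested probes. UV Dose 2 replicates 1, 2 and 3 stood alone above for 53, 39 and 15 probes and alone below for 31, 2 and 3. UV Dose 1 replicates 1, 2 and 3 stood alone above for 44, 84 and 35 probes and alone below for 1, 21 and 2. Single arrays thus carried departures of their own at either dose, most often UV Dose 1 replicate 2 and UV Dose 2 replicate 1. Each pool was measured on 1 array, so departures of the pool and of the array cannot be told apart.

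**Figure D5:**
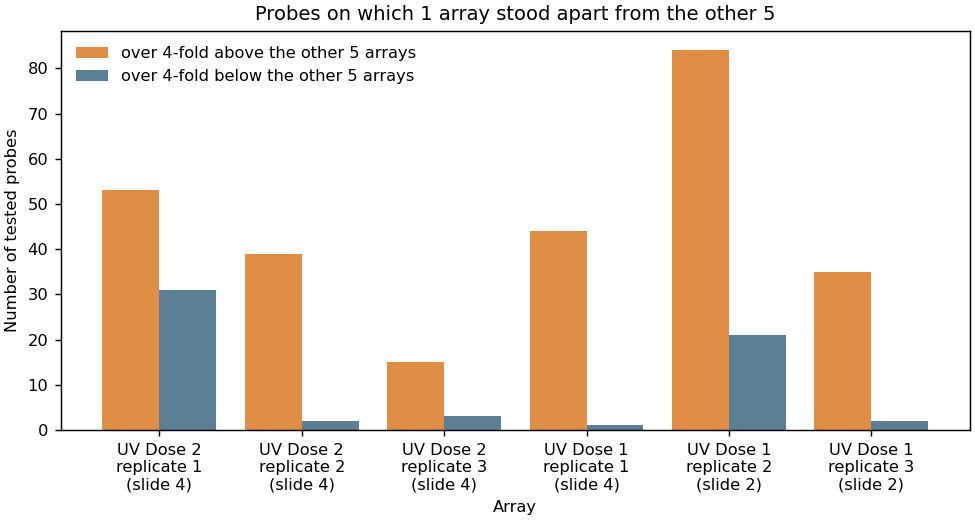
Number of tested probes (vertical axis) on which each array (horizontal axis, with its slide) stood over 4-fold above or below all other 5 UV arrays. UV Dose 1 replicate 2 stands alone above for 84 probes and UV Dose 2 replicate 3 for 15.

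Departures of a single array were seen in either direction. The widest was that of contig13313, which read 2.28, 2.45 and 2.66 under UV Dose 2, against 2.79, 9.96 and 3.51 under UV Dose 1. GYUW2K402IPOA3 read 9.70, 3.23 and 2.84 under UV Dose 2, against 4.43, 1.70 and 3.72 under UV Dose 1. The probe contig10994 read 4.11, 4.38 and 4.19 under UV Dose 2, against 9.26, 4.31 and 4.52 under UV Dose 1. In the opposite direction GYUW2K401EFRD2 read 12.43, 12.19 and 11.88 under UV Dose 2, against 11.71, 6.57 and 12.54 under UV Dose 1. These 4 probes were singled out after their values were seen.

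Probes designed on assembled contigs and on single reads gave similar shares. At an unadjusted p under 0.05 there were 4.43% of 16692 contig probes and 4.74% of 15431 single-read probes. Their median differences were 0.03 and -0.04 on the log2 scale. The interval lay inside 2-fold for 61.3% of the contig probes and 66.1% of the single-read probes.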

How the data were processed

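Custom one-colour arrays of *E. crypticus* were used, 3 each of UV Dose 2 and UV Dose 1, grouped by title and treatment label, although another label of the UV Dose 2 arrays reads dose 1 with 8100 J/m². The authors quantified spots with Agilent Feature Extraction 10.7.3.1, and the deposited values are background-subtracted spot intensities on a linear scale, not normalized between arrays, with detection flags. The deposited table of the series holds the same intensities rounded and served as an alternative. The files hold no depth, so 3 arrays per dose limit the precision. No pair of UV arrays shared more than 0.00229% of its intensities.

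Log2 intensities were normalized by SVCD, rewritten in R 4.3.3 from the study's methods (variance trim 1%, Kolmogorov-Smirnov level 0.001), and tested with limma 3.58.1 (lmFit, eBayes), two-sided, with Benjamini-Hochberg adjustment over all 32123 probes. Scripts were tested on simulated data. Array summaries were compared by exact permutation. Control levels used offsets of SVCD over 9 arrays.

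Members and rules were chosen with earlier results of these data known. Named probes had an unadjusted p under 0.05, non-overlapping arrays and a signal well above background on all 3 arrays of a dose. The 10 largest differences and 5 smallest p-values each way were taken, with contig13054, the 5 widest ranges among probes well above background on all 6 arrays, and any called probe. The normexp alternative (offset 50) used the median signal, since the files used here have no mean-signal column. No gene list was searched because probes have no gene names, and probe sequences were not used here. Alternatives were other normalizations, filters, background corrections, priors, blocks, the methods' t-test, and leaving out each array.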

Additional observations from a re-analysis of the deposited data

How the results depend on the processing

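Over the 25 alternatives that gave a count of calls, the number of probes with an adjusted p under 0.05 was 0 except with the methods' t-test (1) and with the trended and robust prior (2). The number at an unadjusted p under 0.05 moved beyond 1.5 times with normexp (917), and leaving out single arrays gave 1029 to 3385, the highest without UV Dose 1 replicate 2. The share of these higher in UV Dose 2 was 60.1% with Median, 55.1% with Quantile, 58.1% with MedianCD, 27.9% with 75th percentile, 16.3% with spike-in and 51.5% with cyclic loess scaling, and 25.8% with none. It was 40.3% with SVCD over 9 arrays, 45.6% with all 9 arrays in a single fit, 41.8% without the filter on dim probes, 41.6% with probes well above background, 52.0% with normexp, 51.3% with the t-test, 47.6% with the trended prior and 24.1% with slide as a fixed block. Leaving out single arrays gave 15.6% to 47.2%.

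The replicate numbers were not used to pair the arrays in the main fit. Deviations of same-numbered arrays correlated at 0.132, 0.189 and -0.003, and those of unlike-numbered arrays between -0.242 and 0.075. With 3 arrays per dose these values cannot settle whether the arrays were paired. With the replicate number as a block, 0 probes were called, 1718 had an unadjusted p under 0.05 and 32.6% of these were higher.

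Probes with an interval inside 2-fold numbered 12886 with spike-in scaling, 31310 with normexp and 10252 with slide as a fixed block, and 15898 to 19007 without single arrays. The median difference was 0.0831 with Median and 0.0753 with MedianCD, -0.0415 with 75th percentile, -0.0907 with spike-in scaling and -0.0478 without normalization, and -0.0393 to 0.000921 without single arrays. Non-overlapping probes numbered 1624 with spike-in scaling and 4894 to 8754 without single arrays, where fewer arrays have to separate. Added after seeing the data were the counts over 2-fold, the gap counts, the array medians and the single-array counts. Differences over 2-fold numbered 518 with SVCD over 9 arrays, 2142 without the filter, 189 with probes well above background, 49 with normexp and 1037 to 1379 without single arrays. Probes with a 2-fold gap between the doses numbered 66 without the filter, 14 with probes well above background, 9 with normexp and 50 to 209 without single arrays. Probes with a single array over 4-fold beyond the others numbered 208 with SVCD over 9 arrays, 1098 without the filter, 86 with probes well above background and 29 with normexp. Probes well above background at a single dose numbered 223 to 528 without single arrays, where fewer flags are needed. Normexp with its offset compresses low levels, and the other causes were not tested.

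The spike-in difference turned to -0.00749 with all 10 transcripts and ran from -0.17 to 0.22 without single arrays. Of 829 alternative differences of the 33 named probes, 816 kept their sign. GYUW2K401EIO4R turned to -0.0328 with Quantile, -0.0373 with 75th percentile, -0.0865 with spike-in scaling, -0.0436 without normalization, -0.0962 with cyclic loess, -0.0115 with probes well above background and -0.0978 with normexp, and ran from -2.26 to 2.28 without single arrays. GYUW2K401EB3AQ turned to -0.0303 with spike-in scaling and -0.00505 with cyclic loess, and ran from -0.000119 to 0.0734 without single arrays. Low signal limits the dim probes most.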
